A study of Homo sapiens with 30 samples.

Results

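The core QKI exons are cassette exons whose inclusion differed in the same direction in undifferentiated human embryonic stem cells (day 0, D0) and in the cardiomyocyte cultures made from them (day 8, D8). A cassette exon is an internal exon that is either kept in the mature mRNA or skipped. Its inclusion level is the share of transcripts that keep it, from 0 to 1, estimated from reads that cross its splice junctions. An event, meaning 1 exon with 1 pair of neighbouring splice sites, was a member when the same event stood in both skipped-exon tables and had, averaged over an arm's libraries, 10 or more junction reads in both arms. Its mean inclusion also had to differ between the arms by at least 0.1, with the same sign, on both days. In all, 600 events met this rule of 50661 with enough reads on both days, 59212 held on both days and 141527 held in any of the 4 tables. They cover 569 distinct exons of 469 genes. Members were thus chosen by their measured inclusion at D0 and D8, and their values on those days are given as a description only. Day 4 (D4) and the 293T cells had no part in the choice and were tested.

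The cells were Hues6, a human embryonic stem cell line, either QKI knockout (KO) or wild type (WT), with 3 libraries per group on each of D0, D4 and D8 and for nuclear RNA of D8. The D4 and D8 cells had received 1.25 uM CHIR when KO and 1.5 uM when WT. CHIR is a GSK3 inhibitor that switches on WNT signalling, and both genotypes also had 1.5 ng/mL BMP4 and later C59, an inhibitor of WNT secretion. The line 293T, derived from embryonic kidney and named 293xT in its source label, was given an siRNA against QKI or a non-targeting siRNA, with 3 libraries each. Dose and genotype cannot be told apart after D0. The sources used here do not say how the knockout was made or whether it is 1 clone. Nothing in the labels says that the libraries of a group came from separate cultures, so p-values speak only of the spread among these libraries, which may be technical. Summed over 8 genes, pluripotency markers stood at 8339 to 8954 CPM in KO and 7554 to 7875 in WT at D0 (CPM is the gene count scaled to the library size). At D8 that sum was 533 to 620 in KO and 1340 to 1761 in WT, with 6 of the 8 genes lower in KO and 1 higher.

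QKI (quaking) is an RNA-binding protein of the STAR family. It binds ACTAA-like sites in introns and 3′ untranslated regions and, according to where it sits, can favour or repress the use of a neighbouring exon. It is best known for its part in splicing during muscle, heart and myelin formation. Short cassette exons often change a few residues of a protein when their length is a multiple of 3, and shift the reading frame when it is not.

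Each of the 4 skipped-exon tables sets a first arm of 3 libraries against a second arm of 3 and names neither. They are called the second and the first arm here, and every difference is second minus first. QKI itself was lower in the second arm of each table, over the 3 QKI events present in all 4. Its junction reads, scaled to all junction reads of the library as CPM, were 3.58 to 5.003 in the second arm and 55.0 to 82.2 in the first arm at D0. At D4 they were 17.2 to 20.6 in the second arm and 61.2 to 77.1 in the first arm, and at D8 15.8 to 16.1 in second-arm libraries, against 89.3 to 110 in first-arm libraries. The 293T values were 1.71 to 2.99 in the second arm and 10.3 to 17.1 in the first arm. A junction shared by several events counts once for each of them, so these values are not on the scale of gene-level CPM. The gene-level counts, which do name the groups, gave QKI a mean of 39.4 ± 3.34 CPM in KO and 293 ± 7.39 in WT at D0 (SD, n = 3 each; log2 fold change -2.90, SE 0.10, edgeR adjusted p 7e-15). At D4 QKI stood at 78.3 ± 10.2 CPM in KO and 146 ± 8.87 in WT. At D8 it stood at 335 ± 5.3 in the libraries labelled KO and 324 ± 41.9 in WT (0.05, SE 0.09, edgeR adjusted p 0.66). The gene-level count thus did not separate those groups. The 3 junction events differed between the arms at D8, but the arms are unnamed and were not matched to KO or WT. Nuclear RNA gave a gene-level mean for QKI of 505 ± 30.9 CPM in KO, above the 160 ± 25 of WT.

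Sequences are shown for 9 of the 20 exons with the largest differences, all annotated as coding, so that the lost or gained stretch can be read. They are exons of GENCODE 29 transcripts (GRCh38), matched to the hg19 events by gene, strand, exon length and the lengths of both flanking introns. Each runs 5′ to 3′ on the gene's strand, and the capitals mark the last 3 bases, next to the 5′ splice site. The first 4 were included less in the second arm and the other 5 more.
AKAP9, 54 nt, chr7:91992158-91992211, plus strand: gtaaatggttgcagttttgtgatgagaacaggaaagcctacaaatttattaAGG
NBEA, 63 nt, chr13:35645869-35645931, plus strand: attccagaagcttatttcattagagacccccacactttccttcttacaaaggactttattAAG
CASK, 36 nt, chrX:41555600-41555635, minus strand: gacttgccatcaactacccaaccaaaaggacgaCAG
ANK3, 63 nt, chr10:60166591-60166653, minus strand: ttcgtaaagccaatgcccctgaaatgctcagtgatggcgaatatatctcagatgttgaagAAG
LPHN2, 129 nt, chr1:81986901-81987029, plus strand: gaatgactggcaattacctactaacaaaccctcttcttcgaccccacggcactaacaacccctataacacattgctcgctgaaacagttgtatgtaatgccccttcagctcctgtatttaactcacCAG
FSD1L, 23 nt, chr9:105479354-105479376, plus strand: gctgccagacagatcaaggaTAG
VPS29, 12 nt, chr12:110499535-110499546, minus strand: gctgggcacAGA
CLASP1, 24 nt, chr2:121444939-121444962, minus strand: atggtactaccactaaagcggAGG
COL25A1, 24 nt, chr4:108852902-108852925, minus strand: aggattaccaccttaactgtcACG

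Among the exons lower in the second arm, the largest shared difference was in AKAP9, a scaffold that anchors protein kinase A at the centrosome and Golgi. Its 54-nt exon (hg19 chr7:91621472-91621525) had inclusion levels of 0.07, 0 and 0.062 in the second arm and 1 in each first-arm library in the authors' deposited table for D0. At D8 all 3 second-arm libraries were at 0 and all 3 first-arm libraries at 1, so the second arm skipped an exon that the first arm always used. SYNRG encodes gamma-synergin, a partner of the AP-1 clathrin adaptor. Its 234-nt exon (hg19 chr17:35937478-35937711) stood at 0.049, 0.043 and 0.027 in second-arm libraries and 0.872, 0.956 and 0.974 in first-arm libraries at D0, per the authors' deposited table. A 167-nt form of the same exon, which shares one of its ends, is a separate member with levels of 0.232 in second-arm libraries and 0.978 in first-arm libraries at D0. RALGAPA1, the catalytic subunit of a GTPase-activating complex for Ral proteins, has a 31-nt exon (hg19 chr14:36017714-36017744). In the authors' deposited table for D0 it was at 0.221, 0.282 and 0.181 in the second arm and 1 in all first-arm libraries, and no second-arm library came near the first arm on either day.

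The 36-nt exon of CASK, a membrane-associated scaffold of the guanylate kinase family (hg19 chrX:41414853-41414888), was the most deeply covered of the 10 lost exons at D0, with 556 junction reads per second-arm library and 572 per first-arm library. Its D0 levels in the authors' deposited table were 0.102, 0.098 and 0.075 in second-arm libraries and 0.721, 0.729 and 0.702 in first-arm libraries, with no overlap. NBEA (neurobeachin, a membrane-traffic protein) had a mean of 0.054 in second-arm libraries and 0.774 in first-arm libraries at D0 for its 63-nt exon (hg19 chr13:36220006-36220068). SYTL2, a Rab27 effector, had 0.0477 in second-arm libraries and 0.864 in first-arm libraries for a 48-nt exon (hg19 chr11:85428526-85428573). NIN, a centrosomal protein that anchors microtubules, has by far the longest exon of the 20 described individually, 2139 nt (hg19 chr14:51223210-51225348), with 0.115 in second-arm libraries and 0.736 in first-arm libraries at D0. DMXL2, which takes part in assembly of the vacuolar proton pump, had 0.401 in second-arm libraries and 1 in first-arm libraries for a 63-nt exon (hg19 chr15:51751795-51751857). The 63-nt exon of ANK3, or ankyrin-G (hg19 chr10:61926349-61926411), had 0.229 in second-arm libraries and 0.827 in first-arm libraries.

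The most strongly gained exon was in LPHN2, a latrophilin, that is an adhesion G protein-coupled receptor. Its 129-nt exon (hg19 chr1:82452585-82452713) had 872 junction reads per second-arm library and 529 per first-arm library at D0. Inclusion in the authors' deposited table for D0 was 0.988, 0.982 and 0.972 in second-arm libraries and 0.071, 0.077 and 0.087 in first-arm libraries. At D8 it was 0.951, 0.942 and 0.919 in second-arm libraries and 0.027, 0.037 and 0.039 in first-arm libraries, so this exon was nearly always skipped in one arm and nearly always kept in the other. The 12-nt exon of VPS29, a subunit of the retromer coat (hg19 chr12:110937340-110937351), rests on 1740 reads per second-arm library and 1886 per first-arm library. It stood at 0.675, 0.671 and 0.673 in second-arm libraries and 0.031, 0.037 and 0.024 in first-arm libraries at D0, per the authors' deposited table. AFAP1, an actin-filament crosslinker, had 0.677, 0.862 and 0.871 in second-arm libraries and 0.189, 0.114 and 0 in first-arm libraries for a 252-nt exon (hg19 chr4:7783103-7783354). The arms of these exons did not overlap on either day.

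CLASP1, which stabilises growing microtubule ends, had 0.603 in second-arm libraries and 0.006 in first-arm libraries at D0 for a 24-nt exon (hg19 chr2:122202515-122202538), with 0.722 in second-arm and 0.243 in first-arm libraries at D8. MAP4K4, a kinase upstream of the JNK pathway, had 0.864 in second-arm libraries and 0.384 in first-arm libraries at D0 for a 162-nt exon (hg19 chr2:102477287-102477448), with 0.921 in second-arm and 0.244 in first-arm libraries at D8. DENND4C, an activator of Rab10, had 0.994 in second-arm libraries and 0.293 in first-arm libraries for a 147-nt exon (hg19 chr9:19336684-19336830). WDFY3, an adaptor of selective autophagy, had 0.540 in second-arm libraries and 0.0317 in first-arm libraries for an 84-nt exon (hg19 chr4:85729487-85729570). FSD1L had 0.733 in second-arm libraries and 0 in first-arm libraries for its 23-nt exon (hg19 chr9:108241635-108241657). COL25A1, a transmembrane collagen, had 2 such exons, of 24 nt (hg19 chr4:109774058-109774081; 0.581 in second-arm libraries and 0.104 in first-arm libraries at D0) and 78 nt (hg19 chr4:109740408-109740485; 0.486 in the second arm, 0.053 in the first).

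**Figure D1:**
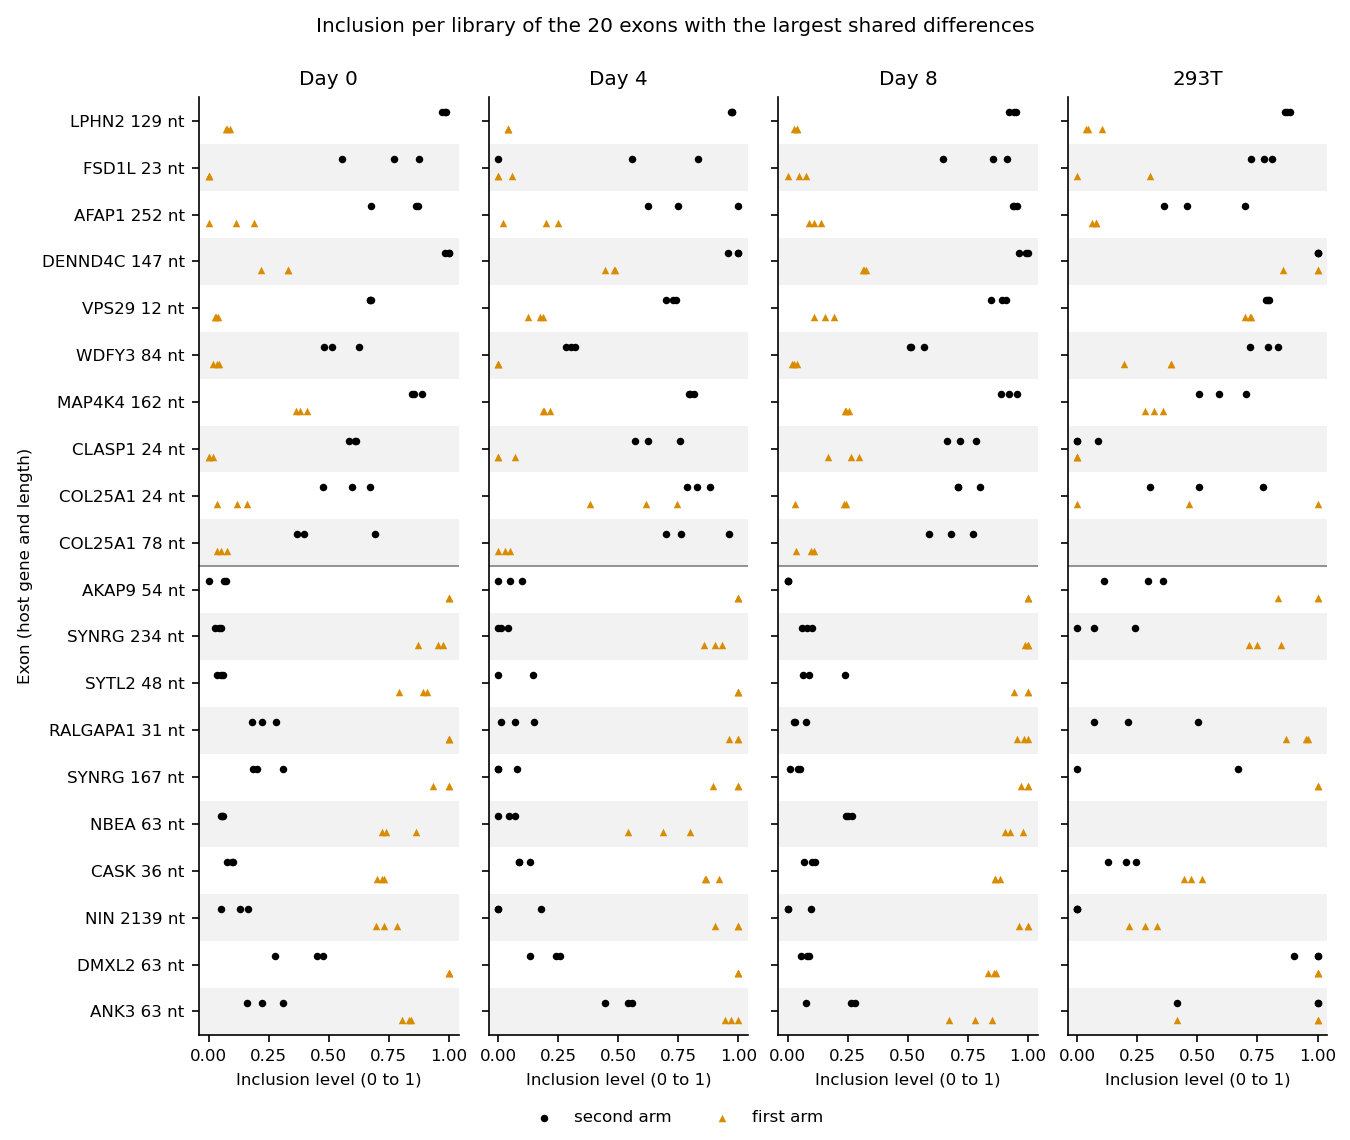
Inclusion level (0 to 1) in each library for the 10 exons most gained and, below the line, the 10 most lost in the second arm at D0 and D8, with second-arm libraries as black circles and first-arm libraries as orange triangles in 4 panels (D0, D4, D8 and 293T). The arms are apart for all 20 at D0 and D8, while in 293T the DENND4C exon is near 1 and the CLASP1 exon near 0 in both arms.

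Over the whole set, gained and lost events were almost equal in number, with 293 higher and 307 lower in the second arm. They came from 237 and 264 genes. Of the events with enough reads on both days, 1.18% passed the limit on both days with the same sign and became members, and 0.565% (286 events) passed it with opposite signs. At D0 the higher members had a median inclusion of 0.673 in second-arm libraries and 0.451 in first-arm libraries, and the lower members 0.433 in second-arm libraries and 0.695 in first-arm libraries. At D8 the higher members had medians of 0.791 in second-arm libraries and 0.496 in first-arm libraries, and the lower members 0.411 in second-arm libraries, against 0.700 in first-arm libraries. The median size of the difference was 0.166 at D0 and 0.179 at D8, beside 0.006 and 0.00567 over all events with enough reads on each day. The difference was larger at D8 than at D0 in 348 of 600 events. The arms were free of overlap on both days in 321 members, beside 3.21% of all events with enough reads, and since these are the values that the rule used, nothing is read from that count.

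The rule asked for a size and not for a test, and the members differ in how firm they are. The authors' deposited tables gave an FDR under 0.05 to 370 of the 600 at D0, to 350 at D8 and to 273 on both days, of which 136 were higher and 137 lower. The tables call 2.36% of their events at D0 and 2.23% at D8 by an FDR under 0.05 and a difference of at least 0.1. Since D0 and D8 chose the members, nothing is read from these counts. The members nearest inside the limit were events of CWF19L1 (0.1 at D0 and 0.152 at D8), INTS12 (-0.1003 at D0 and -0.1 at D8) and MAP4K4 (0.1 at D0 and 0.509 at D8). The nearest events outside it were in MPPE1 (-0.245 at D0 and -0.0997 at D8), PROC (-0.243 and -0.0997) and GIGYF2 (-0.0997 and -0.158). The MAP4K4 event at the limit is the 162-nt exon described above, paired with other neighbouring splice sites. With the neighbours used above, its D0 difference was 0.48.

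**Figure D2:**
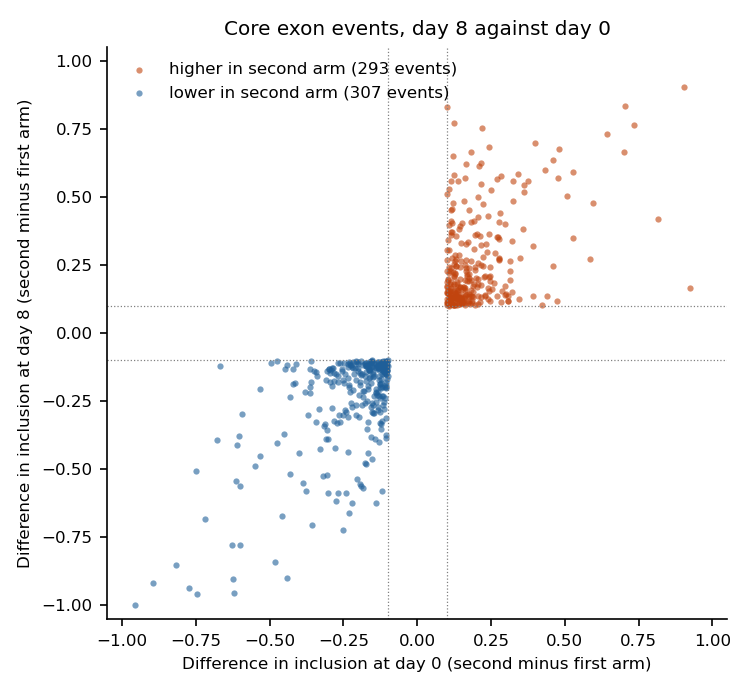
Difference in inclusion (second minus first arm) at D8 on the vertical axis against D0 on the horizontal axis for the 600 core events, 293 higher (orange) and 307 lower (blue) in the second arm. Dotted lines mark the 0.1 limit of the rule, which empties the other 2 quadrants, so the picture describes the choice and tests nothing.

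Day 4 was the first comparison outside the rule. An event was called there at the authors' FDR under 0.05 with a difference of at least 0.1 and the same read minimum. Of the 600 core events, 559 were held in the D4 table and 454 had enough reads. Of those 454, 170 (37.4%) were called in the same direction as at D0 and D8 and 12 in the opposite direction, and 272 were not called. The rule calls 1.1% of all 58983 events of that table. Among the 213 higher members 86 were called higher, against 0.556% of all events called higher. Among the 241 lower members 84 were called lower, against 0.539% of all events called lower. The difference had the same sign in 324 of 454 (71.4%), and the members' median size of difference was 0.130 beside 0.008 over all events. For members with the authors' FDR under 0.05 on both other days, 150 of 249 were called in the same direction (60.2%), and of the remaining members 20 of 205. The sign matched in 216 of those 249 (86.75%) but in only 108 of the remaining 205 (52.7%).

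The members with the largest differences repeated at D4 whenever they could be read. All 16 of the 20 individually described exons that had enough D4 reads were called in the same direction. LPHN2 rose to 0.967, 0.973 and 0.975 in second-arm libraries, against 0.041, 0.042 and 0.041 in first-arm libraries, in the authors' deposited table for D4 (FDR printed as 0). RALGAPA1 fell to 0.15, 0.013 and 0.071 in second-arm libraries, against 1, 0.961 and 1 in first-arm libraries. The 36-nt CASK exon fell to a mean of 0.101 in second-arm libraries, against 0.88 in first-arm libraries. In bins of the smaller D0 or D8 difference, chosen after the values were seen, the share called in the same direction was 18.1% of 270 events from 0.1 to 0.15, 50.7% of 69 from 0.15 to 0.2, 68.5% of 89 from 0.2 to 0.4 and 96.2% of 26 above that. AKAP9, SYTL2, FSD1L and the 167-nt SYNRG exon lacked reads at D4. AKAP9 stood there at 0.048, 0 and 0.098 in the second arm and 1 in each first-arm library with 9.33 reads per second-arm library, against 16.7 per first-arm library.

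A second test, limma on the logit of inclusion per library with Benjamini-Hochberg adjustment over all 58983 events, made far fewer calls in the table as a whole (0.102%). It called 35 of the 454 members, all in the same direction. An unadjusted p under 0.05 was found for 212 members (46.7%), beside 4.04% of all events. With 1 library left out it called 18 to 24 of them, fewer by over 1.5 times for every library but the second of the second arm, where 24 were called. Limited to events with a mean inclusion of 0.05 to 0.95, an alternative chosen after the data were seen, it called 84 members in the same direction and 1 in the opposite one, beside 1.21% of all such events. Within that limit 206 of 440 members (46.8%) had an unadjusted limma p under 0.05, beside 1285 of all 12796 events. The contrast was thus smaller than over the whole table. At D4, where 28.4% of all genes tested differed between the genotypes, so did marker genes of several cell types. The summed level of 6 endoderm genes ranged from 202 to 221 CPM in KO and 77.3 to 86.2 in WT (5 of 6 higher in KO), and that of 10 cardiac sarcomere genes from 407 to 520 in KO and 301 to 352 in WT (4 of 10 higher). That of 5 endothelial genes was 392 to 438 in KO and 191 to 227 in WT (3 of 4 tested higher). The surface ectoderm and amnion sum was 1186 to 1266 in KO and 906 to 997 in WT (3 of 9 higher, 4 lower), and the pluripotency sum 1905 to 1920 in KO and 2207 to 2386 in WT (1 of 8 higher, 5 lower). At D8 the sarcomere sum was 29930 to 35010 CPM in KO and 10920 to 18800 in WT (8 of 10 higher, 1 lower), and that of 10 surface ectoderm and amnion genes 1118 to 1338 in KO and 2298 to 3302 in WT (9 of 9 tested lower). The endoderm sum at D8 was 280 to 423 in KO and 135 to 212 in WT. For endothelial genes it was 612 to 665 in KO and 278 to 332 in WT. That of 5 fibroblast genes was 652 to 821 in KO and 314 to 411 in WT. At D4 the fibroblast sums overlapped (356 to 566 in KO, 398 to 549 in WT). The 1 neural gene tested was lower in KO on both days. In bulk RNA fewer cells of a type and less RNA per cell cannot be told apart, and the part of cell makeup in the exon differences was not tested.

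The 293T cells gave the comparison furthest from the differentiation. Here 487 members were held and 288 had enough reads, at a median of 30.3 junction reads per library against 57.8 at D4. Of the 288, 53 (18.4%) were called in the same direction and 0 in the opposite one, beside 0.449% of the 45021 events of the table. Of 128 higher members 24 were called higher, against 0.273% of all events, and of 160 lower members 29 were called lower, against 0.175%. The sign matched in 218 of 288 (75.7%). It matched in 150 of the 180 members with the authors' FDR under 0.05 at D0 and D8 (83.3%), and in 68 of the other 108 (63.0%). The second test, limma with the same adjustment, called 5 members in the same direction and 0 in the opposite one (0.0222% of all events; 1 to 5 members with 1 library left out), and 86 (29.9%) had an unadjusted p under 0.05, beside 3.98% of all events. Limited to intermediate inclusion it called 15 in the same direction and 0 in the opposite one, beside 0.205% of such events. Within that limit 86 of 257 members (33.5%) had an unadjusted limma p under 0.05, beside 949 of all 9754 events.

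Of the 20 individually described exons, 11 had enough reads in 293T and 6 were called. LPHN2 rose to 0.884, 0.874 and 0.863 in second-arm libraries, against 0.104, 0.043 and 0.034 in first-arm libraries, in the authors' deposited table for 293T. SYNRG fell to 0.071, 0 and 0.238 for its 234-nt exon in second-arm libraries, against 0.846, 0.75 and 0.714 in first-arm libraries (FDR 3.51e-09 in the authors' deposited table). NIN fell to 0 in all 3 second-arm libraries, against 0.283, 0.216 and 0.333 in the first. Of the 5 that were not called, DENND4C was at 1 in second-arm libraries and 0.953 in first-arm libraries, and DMXL2 at 0.967 in second-arm libraries, against 1 in first-arm libraries. CLASP1 was at 0.029 in second-arm libraries and 0 in first-arm libraries. VPS29, whose 12-nt exon was nearly absent from the first arm at D0, was at 0.792 in second-arm libraries and 0.714 in first-arm libraries (FDR 0.108 in the authors' deposited table). A 90-nt form that shares one end with this VPS29 exon is a separate member. It was called in 293T in the same direction, at 0.471 in second-arm libraries and 0.319 in first-arm libraries. CASK was at 0.192 in second-arm libraries and 0.479 in first-arm libraries, a difference of -0.287 with 19.7 reads per second-arm library, 13.3 per first-arm library and an FDR of 0.175 in the authors' deposited table.

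**Figure D3:**
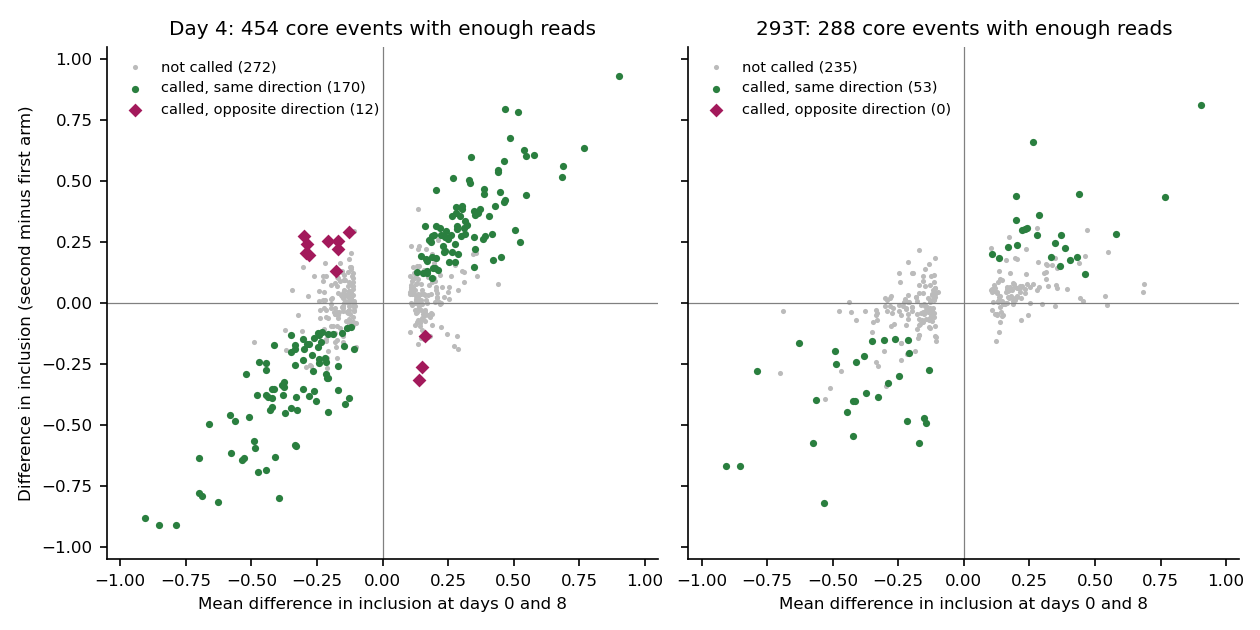
Difference in inclusion (second minus first arm) of the core events at D4 (left, 454 events) and in 293T (right, 288 events), against their mean difference at D0 and D8. Green points were called in the same direction (170 and 53), magenta diamonds in the opposite direction (12 and 0) and grey points were not called.

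In all, 47 events of 42 genes were called in the same direction both at D4 and in 293T, of 267 with enough reads in both. The rule calls 1.1% of all events at D4 and 0.449% in 293T. The share of all events called in both was not counted, so nothing is read from the 47. Events named here beyond the ranked 20 were chosen after their values were seen. SLMAP, a membrane protein of muscle that belongs to the STRIPAK phosphatase complex, fell to 0.335 in second-arm libraries, against 0.978 in first-arm libraries, at D4 and to 0.141 in the second arm (first arm 0.961) in 293T for a 90-nt exon. ESYT2, which tethers the endoplasmic reticulum to the plasma membrane, rose to 0.988 in second-arm libraries, against 0.449 in first-arm libraries, at D4 and to 0.862 in the second arm (first arm 0.416) in 293T for a 63-nt exon. The smallest members of this set were the 3-nt exon of CLASP2, which fell to 0.038 in second-arm libraries, against 0.489 in first-arm libraries, at D4 and to 0.469 in the second arm (first arm 0.836) in 293T, and the 12-nt exon of SLIT2.

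Host genes were also grouped by function, with lists drawn up when earlier results of these data were known, so that their counts describe the members and are no independent evidence. Beside them stand 2 shares: 4.56% of the 10285 genes with an event read on both days hosted a core exon, and 158 of 432 distinct core exons with enough D4 reads (36.6%) were called there in the same direction. Matched by gene symbol, a list of actin, adhesion and muscle genes had 30 distinct core exons in 22 of 86 genes (25.6%), 17 higher and 13 lower. Of the 24 exons with enough D4 reads, 18 (75%) were called there in the same direction. LPHN2, with 2 distinct core exons in opposite directions, is listed under its other symbol ADGRL2 and was not counted. Genes under another symbol could be missed in any of these lists. MYO18A, an unconventional myosin, had both directions, with a 45-nt exon at 0.114 in second-arm libraries and 0.864 in first-arm libraries at D0 and a 12-nt exon at 0.805 in second-arm libraries, against 0.559 in first-arm libraries. NUMB, a regulator of Notch and endocytosis, fell to 0.0743 for its 33-nt exon in second-arm libraries, against 0.706 in first-arm libraries, at D4. TPM1, a tropomyosin that winds along actin filaments, fell to 0.553 for a 79-nt exon in second-arm libraries, against 0.936 in first-arm libraries, at D4. CTNND1, or p120-catenin, which steadies cadherins at cell contacts, rose to 0.207 for an 87-nt exon in second-arm libraries, against 0.00633 in first-arm libraries. ITGA7, the laminin-binding integrin of muscle, rose to 0.440 for a 132-nt exon in second-arm libraries, against 0.178 in first-arm libraries.

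Microtubule and centrosome genes had 14 distinct exons in 10 of 38 genes (26.3%), 7 higher and 7 lower, and 12 of 14 (85.7%) were called at D4 in the same direction. DST, a spectraplakin that links filament systems, lost an 18-nt exon and a 111-nt exon. The 18-nt exon fell to 0.004 in second-arm libraries, against 0.355 in first-arm libraries, at D4 and to 0.152 in the second arm (first arm 0.696) in 293T. MACF1, the other spectraplakin, moved the opposite way for an 18-nt exon, which rose to 0.780 in second-arm libraries, against 0.275 in first-arm libraries, at D4. MARK3, a kinase of microtubule-associated proteins, fell to 0 for a 27-nt exon in second-arm libraries, against 0.685 in first-arm libraries, at D4.

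Vesicle-traffic genes had 17 distinct exons in 13 of 56 genes (23.2%), 12 higher and 5 lower, and 13 of 16 (81.2%) were called at D4 in the same direction. BIN1, which bends membranes and shapes the T-tubules of muscle, gained 3 exons. Its 93-nt exon (hg19 chr2:127825739-127825831) rose to 0.993 in second-arm libraries, against 0.607 in first-arm libraries, at D4 and to 0.353 in the second arm (first arm 0.0733) in 293T, and its 108-nt and 129-nt exons were also called at D4. PICALM, a clathrin assembly protein, rose to 0.391 for a 129-nt exon in second-arm libraries, against 0.168 in first-arm libraries, at D4. REPS1, an endocytic adaptor, rose to 0.948 for a 78-nt exon in second-arm libraries, against 0.550 in first-arm libraries. MYO5A, a vesicle motor that stands in both this list and that of actin genes, fell to 0.096 for an 81-nt exon in second-arm libraries, against 0.523 in first-arm libraries.

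Genes of signalling had 17 distinct exons in 12 of 51 genes (23.5%), 12 higher and 5 lower, with 10 of 16 (62.5%) called at D4 in the same direction. The 63-nt exon of NF1, a GTPase-activating protein for Ras, fell to 0.312 in second-arm libraries, against 0.751 in first-arm libraries, at D4. Genes of RNA processing and transcription had 13 distinct exons in 11 of 53 genes (20.8%), 5 higher and 8 lower, with 7 of 9 (77.8%) called at D4 in the same direction. SMARCC2, a subunit of the BAF chromatin remodeller, rose to 0.988 for a 66-nt exon in second-arm libraries, against 0.544 in first-arm libraries, and TCF7L2, the nuclear partner of beta-catenin, fell to 0.558 for a 51-nt exon in the second arm (first arm 0.816). PTBP1, itself a splicing repressor, rose to 0.583 for a 57-nt exon in second-arm libraries, against 0.451 in first-arm libraries. The genes given from the lists were picked after their values were seen.

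QKI, the gene knocked out, is also a host of its own core exon. The sources used here do not say how the knockout was made, so its place relative to this exon is not known. The 143-nt exon (hg19 chr6:163876311-163876453) was at 0.735, 0.804 and 0.814 in second-arm libraries and 0.962, 0.961 and 0.972 in first-arm libraries at D0, per the authors' deposited table. At D8 it was at 0.751, 0.811 and 0.705 in second-arm libraries and 0.968, 0.973 and 0.964 in first-arm libraries. The difference was -0.0223 at D4 and -0.0153 in 293T, and neither was called. The D0 levels rest on 220 junction reads per second-arm library and 2577 per first-arm library.

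Some genes held several core exons. Of the 469 genes, 78 had more than 1 distinct core exon, in 46 of them all in 1 direction and in 32 in both. COL25A1 had the most, with 6. Next to the 2 gained exons above, a 27-nt exon fell to 0.470 in second-arm libraries, against 0.857 in first-arm libraries, at D4 and an 87-nt exon fell to 0.109 in the second arm (first arm 0.8). SORBS2, an adaptor of the sarcomere Z-disc, had 5 distinct exons, all higher in the second arm. The largest of its D8 differences was in a 93-nt exon, at 0.948 in second-arm libraries and 0.282 in first-arm libraries, and none of its exons had enough reads at D4. In CASK the 36-nt exon was lost while a 69-nt exon, the next one upstream, rose to 0.902 in second-arm libraries, against 0.715 in first-arm libraries, at D4. WDFY3 and ANK3 likewise had 1 exon of each direction, and in RPS24, a ribosomal protein gene with 3 core exons, the 22-nt exon fell both at D4 (0.562 in the second arm, 0.803 in the first) and in 293T (0.191 in the second arm, 0.344 in the first). Exons of 1 gene share its transcripts and are not independent members.

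At D4, 12 members of 9 genes were called against their own direction at D0 and D8. Only 4 of the 12 had the authors' FDR under 0.05 on both other days. They are the 3 events of SLC25A29, a mitochondrial carrier of basic amino acids, and 1 of PDE9A, a cGMP-specific phosphodiesterase. The SLC25A29 events are 31, 72 and 368 nt long, end at the same position (hg19 chr14:100761963) and share both neighbours. They have the skipping junction and the downstream junction in common, while each has its own upstream junction. The 31-nt form was at 0.298, 0.161 and 0.271 in second-arm libraries and 0.699, 0.759 and 0.516 in first-arm libraries at D0. At D4 it was at 0.66, 0.604 and 0.569 in second-arm libraries and 0.387, 0.41 and 0.217 in first-arm libraries, with an FDR of 0.000189 in the authors' deposited table. At D8 it was at 0.24, 0.177 and 0.043 in second-arm libraries and 0.351, 0.34 and 0.32 in first-arm libraries. The arms were apart on all 3 days, with the second arm low at D0 and D8 and high at D4, and in 293T the difference was 0.0193 and was not called.

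PDE9A fell to 0.782, 0.823 and 0.675 for a 78-nt exon in second-arm libraries, against 0.871, 0.907 and 0.913 in first-arm libraries, at D4 (FDR 0.0366 in the authors' deposited table), whereas its difference was 0.212 at D0 and 0.113 at D8. FGFR1, a fibroblast growth factor receptor, had a 144-nt exon at 0.373 in second-arm libraries and 0.848 in first-arm libraries at D0, at 0.831 in the second arm (first arm 0.588) at D4, and at 0.779 in the second arm (first arm 0.882) at D8 with only 10 reads per second-arm library. SNHG1, a noncoding host gene of small nucleolar RNAs, had 2 such exons. The arms of its 47-nt exon overlapped at D0 and D8, and those of its 51-nt exon at D0. Those of FGFR1 and PDE9A overlapped at D8. KCNAB2, ZNF780B, ASCC2, KIAA1407 and MTMR11 gave the remaining 5, with D4 differences of -0.264, -0.316, 0.254, 0.223 and 0.292. The arms of all 5 overlapped at D8, and those of KIAA1407 also at D0. The arms of ASCC2, KIAA1407 and MTMR11 overlapped at D4 itself. The second test called none of the 12 over the whole table. Whether the D4 difference departs from those of D0 and D8 was not tested for any of them.

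**Figure D4:**
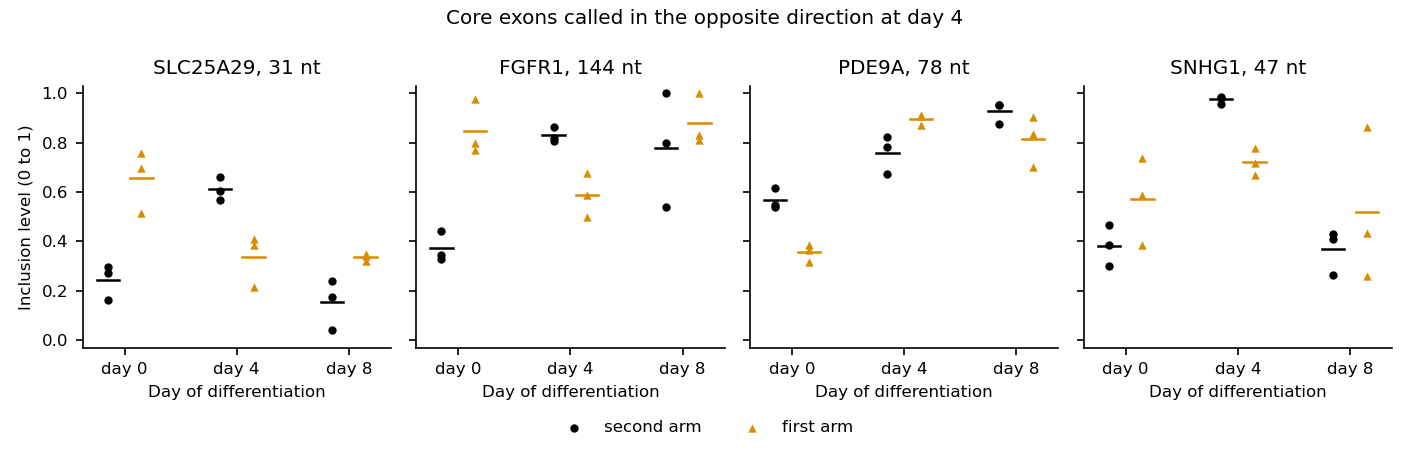
Inclusion level (0 to 1) per library at D0, D4 and D8 for 4 of the exons called in the opposite direction at D4, with the second arm as black circles and the first arm as orange triangles, and bars at the means. The SLC25A29 exon has its second arm below the first at D0 and D8 and above it at D4, with no overlap on any day.

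Length and reading frame were not used by the rule. The median core exon was 93 nt long (quartiles 63 and 143), beside 115 nt (82 and 157) for the 39710 other exons with enough reads on both days. Exons of 3 to 27 nt, often called microexons, made up 33 of 569 core exons (5.8%), beside 1.32% of the others, and 9.8% of the 255 core exons with the authors' FDR under 0.05 on both days. Of the 33, 19 were higher and 14 lower. The length was a multiple of 3 in 294 of 569 core exons (51.7%), in 153 of 273 higher ones (56%) and 141 of 297 lower ones (47.5%), beside 41.6% of the others. In the 255 with the authors' FDR on both days it was so in 175 (68.6%). Of these 255, 85.1% could be matched to a GENCODE exon, and of the 161 that were coding throughout 133 (82.6%) kept the frame, beside 47.1% of coding exons among the others. Among the 8286 other exons with an inclusion of 0.05 to 0.95 in both arms at D0, 79.2% matched and 57.5% of the coding ones kept the frame. Of these 8286, 2.02% were 3 to 27 nt long and 43.8% had a length that is a multiple of 3. Of all 569 core exons only 76.8% matched, so sequence, coding status and base composition are not compared for the whole set.

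Exons were then split by length, in sets chosen after the values were seen. With 1 event per exon, 20 of 29 microexons with enough reads were called at D4 in the same direction (69%), beside 138 of 403 longer ones (34.2%). Of exons whose length is a multiple of 3, 125 of 246 were called (50.8%), and of the others 33 of 186 (17.7%). In 293T the counts were 40 of 161 and 12 of 113. The shares of all events of these lengths called at D4 or in 293T were not counted. Both length classes were commoner among core exons with the authors' FDR on both days. Microexons made up 9.8% of these, beside 5.8% of all core exons, and multiples of 3 68.6%, beside 51.7%. Events with that FDR were called at D4 in 150 of 249 cases, and the others in 20 of 205. Length was not tested apart from this. The ends of the exons were compared only between core and other exons, and not by call. Among the core exons with the authors' FDR on both days, 55.8% ended in AG, beside 55.6% of the other exons. Introns next to the core exons had medians of 2502 nt upstream and 2248 nt downstream, beside 2433 and 2233 nt for all others and 2772 and 2732 nt for the others with an inclusion of 0.05 to 0.95.

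**Figure D5:**
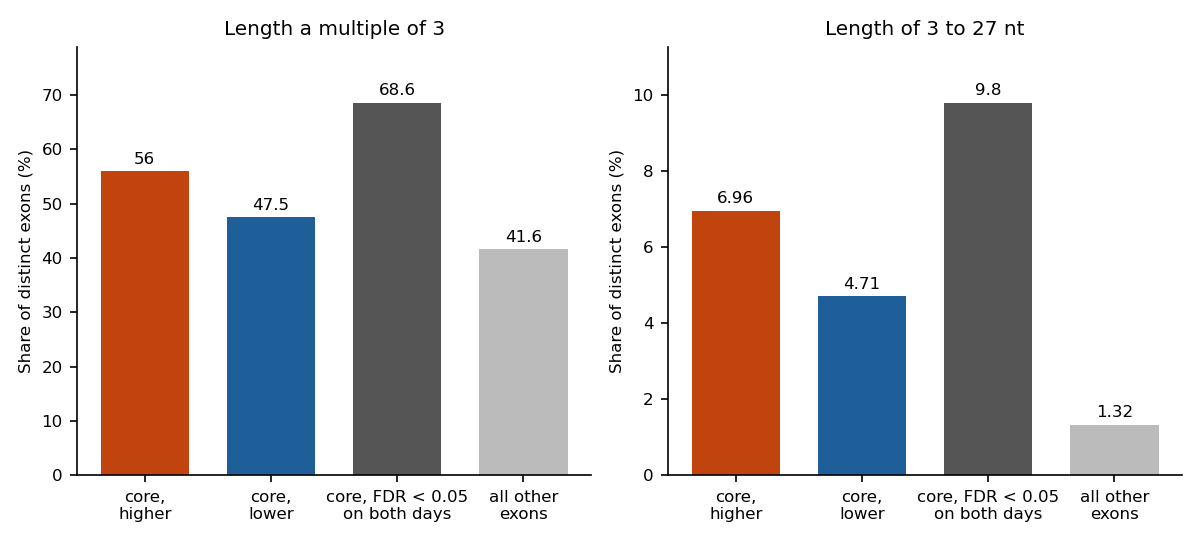
Share of distinct exons (%) whose length is a multiple of 3 (left) and whose length is 3 to 27 nt (right), for core exons higher in the second arm, lower in the second arm, with the authors' FDR under 0.05 on both days, and for all other exons with enough reads. The shares are 56, 47.5, 68.6 and 41.6% on the left and 6.96, 4.71, 9.8 and 1.32% on the right, counted over 273, 297, 255 and 39710 exons.

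The genes that hold the core exons were then followed in the gene counts, which the rule did not use. At D0, 239 of 467 host genes tested differed between KO and WT (51.2%, 114 higher and 125 lower in KO; edgeR's quasi-likelihood test, Benjamini-Hochberg adjusted p under 0.05). Over all genes the share was 42.3%, and 53% over genes that hold an event with enough reads but no core exon. At D4, 173 hosts differed (37%, 98 higher and 75 lower), beside 28.4% of all genes and 33.9% of those other genes. At D8, 296 differed (63.4%, 141 higher and 155 lower), beside 55.6% and 62.5%. Their share thus lay near that of other spliced genes on each day. The median log2 fold change of the hosts was -0.0032 at D0, -0.0058 at D4 and -0.0357 at D8. With libraries scaled to total counts the split became 115 higher and 43 lower at D4, and 97 higher and 220 lower at D8, where that scaling moved the median of all genes to -0.12. Past 2-fold, 16 hosts differed at D0 (3.43%), 12 at D4 (2.57%) and 37 at D8 (7.92%). The shares were 2.23, 1.37 and 6.42% of the other genes with an event and 8.56, 5.68 and 16.6% of all genes.

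In nuclear RNA 365 of 462 hosts differed (79%), beside 64% of all genes and 77% of the other genes with an event. Here 324 were higher in KO and 41 lower, and the median log2 fold change was 0.68, beside 0.62 for the other genes with an event and -0.27 for all genes. Scaled to total counts the split was 210 higher and 88 lower, and the median of all genes -0.72. Without the third nuclear KO library 25 hosts were lower.

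Individual hosts moved more at the gene level. At D0 the largest rise was in PEG3, an imprinted zinc-finger gene, at 110 ± 5.76 CPM in KO and 21.5 ± 1.36 in WT (SD, n = 3 each; log2 fold change 2.35, SE 0.08, edgeR adjusted p 8.4e-15). ADAMTS16, ST5, ALPK3 and CADPS followed with 1.52, 1.24, 1.11 and 0.98. After QKI the largest falls were in PFKFB4, which sets the level of a glycolysis activator, at 16.7 ± 3.14 CPM in KO and 57.5 ± 3.63 in WT (-1.78, SE 0.10, edgeR adjusted p 5.6e-11), in PPFIA4 (-1.76) and in ROBO2 (-1.75). At D8 COL6A3, a chain of collagen VI, stood at 40.8 ± 6.32 CPM in KO and 8.12 ± 0.816 in WT (2.33, SE 0.13, edgeR adjusted p 6.6e-12). SYPL2, FHOD3, FRG1B and NCAM1 followed with 2.03, 1.51, 1.49 and 1.47. FHOD3, a formin that builds sarcomeres, stood at 195 ± 29.5 CPM in KO and 68.5 ± 13.8 in WT, and the cardiac sarcomere sum was higher in the same KO libraries. MED12L fell to 7.13 ± 1.39 CPM in KO, against 33.8 ± 5.96 in WT (-2.25, SE 0.13, edgeR adjusted p 1.6e-11), and TBC1D1, GALNT6, TMEM168 and CA5B had log2 fold changes of -1.77, -1.69, -1.63 and -1.63. In nuclear RNA SYPL2, FHOD3, FRG1B, NCAM1, TBC1D1 and GALNT6 were called in the same direction. MED12L, COL6A3 and CA5B were not called there (-0.06, -0.06 and 0.02), and TMEM168 was higher in KO (0.84). Of the genes named for D0, ALPK3 was lower in KO at D8 (-1.11) and ROBO2 higher (0.29). PEG3, ADAMTS16, ST5 and CADPS kept their direction at D8, and PFKFB4 and PPFIA4 were not called.

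Of a list of 32 splicing regulators, QKI included, 7 were higher and 7 lower in KO at D0, a share of 43.8% beside 42.3% of all genes and 53% of the other genes with an event. At D4, 5 were higher and 7 lower (37.5%, beside 28.4 and 33.9%), and at D8 9 were higher and 13 lower (68.8%, beside 55.6 and 62.5%). The regulators as a list thus stood near the background on each day. At D0 SRSF1, a general activator of exon inclusion, stood at 536 ± 26.2 CPM in KO and 322 ± 14.3 in WT (SD, n = 3 each; 0.73, SE 0.06, edgeR adjusted p 5.2e-09), and SF1, which recognises the branch point, at 218 ± 13.9 in KO and 141 ± 14.4 in WT (0.63, SE 0.07, edgeR adjusted p 2.3e-07). MBNL3 was lower at D0, at 6.18 ± 0.498 CPM in KO and 10.3 ± 0.8 in WT (-0.74). At D8 MBNL1, a regulator of muscle splicing, stood at 21.9 ± 2.41 CPM in KO and 9.78 ± 0.464 in WT (1.16), and RBM24, a regulator of heart and muscle splicing, at 173 ± 20.9 in KO and 85.0 ± 17.9 in WT. RBFOX2 and RBM20, both active in the heart, had log2 fold changes of 0.87 and 0.99. Members of the same families went both ways at D8. RBFOX1 had 1.72, whereas MBNL3 had -1.57 and RBFOX3, at a mean of 0.476 CPM in KO and 1.12 in WT, had -1.23. MBNL2 was not called there. ESRP1 and ESRP2, regulators of epithelial splicing, had -1.38 and -1.37. In nuclear RNA 21 were higher in KO and 5 lower (81.2%), beside 64% of all genes and 77% of the other genes with an event, of which 6657 were higher and 773 lower. Their part in the exon differences was not tested.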

How the data were processed

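The authors deposited 4 skipped-exon tables in rMATS format (D0, D4, D8, 293T), with junction read counts, inclusion levels from 0 to 1, p-values and FDR, plus 2 tables of raw counts per gene (18 whole-cell and 6 nuclear libraries). The submitters' processing notes name the build hg19 and STAR, featureCounts, cutadapt, UMI-tools and DESeq; no source used here states their versions or strand settings. The deposited junction scores carry effective lengths of the skipping form of 150 (D0), 149 (293T) and 100 (D4 and D8); the cause of this difference between tables was not tested.

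Mean inclusion per arm was recomputed from the deposited levels, and the deposited differences, which are first minus second, were equal to minus the recomputed ones within 0.0005. The tables name neither arm. Host genes were tested with edgeR 4.0.16 (R 4.3.3; filterByExpr, TMM, quasi-likelihood test) on 21761 whole-cell and 30481 nuclear genes, and levels with limma 3.58.1 on the logit bounded at 0.01. Both were tested on simulated data. Whole-cell libraries held 40001076 to 89948185 counts and nuclear ones 6549676 to 15030590.

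The members, the lists of 32 regulators and of function groups, and the tests were chosen with earlier results of these data known. Named exons are the 10 distinct exons with the largest smaller difference of D0 and D8 in each direction, members called in the opposite direction elsewhere, QKI members, and the 3 events nearest each side of the limit. Named host genes are QKI and the 5 highest and 5 lowest called at D0 and D8 with at least 10 CPM. Some items that these rules name are not reported here. Alternatives were the read minimum, FDR and size limits, logit bound, scaling (DESeq2 1.42.0 size factors, total counts), filter, replicate block and leaving out each library.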

Additional observations from a re-analysis of the deposited data

Results flagged for a closer look

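The 3 overlapping SLC25A29 events stood out because every second-arm library lay on one side of the first arm at D0 and D8 and on the other at D4. Their D4 differences (second minus first arm) were 0.273 for the 31-nt form, 0.205 for the 72-nt form and 0.198 for the 368-nt form. At D0 they were -0.415, -0.364 and -0.287, and at D8 -0.184, -0.221 and -0.275. The change between days was not tested, and the 3 events share their skipping and downstream junctions.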

How the results depend on the processing

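Exon calls at D4 in the same direction numbered 170, and 86 among members past 0.2 on both days. Opposite calls numbered 12 at D4, 6 at FDR under 0.01, 2 among members past 0.2 and 4 among members with the authors' FDR under 0.05 at D0 and D8, a subset chosen after seeing the data. In 293T the 53 became 30 among members past 0.2, and the 0 opposite became 1 with no read minimum. The limma count of 35 at D4 ran from 18 to 24 with 1 library left out, and the 5 in 293T from 1 to 5. With the logit bound at 0.05 the 293T count was 3. At mean inclusion of 0.05 to 0.95, where fewer events were tested, it was 84 at D4, with 1 opposite, and 15 in 293T. Host genes lower in KO at D4 numbered 43 with total counts in place of 75. In nuclear RNA the 324 higher became 210 with total counts, and the 41 lower became 88 with total counts, 22 with DESeq2 size factors, 16 with no filter and 16 with DESeq2. Without 1 library the 41 ran from 25 to 42, with 25 when nuclear KO library 3 was left out. The cause was not tested. The other 187 values of this kind stayed within 1.5 times, no called value changed sign, and the log2 fold change of QKI at D8, 0.05 and not called, was -0.08 with total counts and -0.04 without WT library 4. Further, 20 values of CASK, DMXL2 and VPS29 at D4 and NIN in 293T no longer passed limma's adjusted threshold of 0.05. No paired analysis was possible because the skipped-exon tables carry no replicate numbers. For the host genes, fits with the replicate block gave 240, 173, 289 and 342 calls at D0, D4, D8 and in nuclear RNA, in place of 239, 173, 296 and 365, and same-numbered libraries correlated by -0.167 to 0.141, so the numbers were not taken as pairs. Depth limits the exon comparisons, as 125 of 600 members had too few reads in both D4 and 293T.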
